A study of Caenorhabditis elegans with 4 samples.

Results

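The regions described here are the autosomal peaks of DPY-26 ChIP-seq that at least 1 replicate supported. They are those of the series-level list on chromosomes II, III, IV and V that shared 1 bp or more with a peak of ChIP replicate 1, of ChIP replicate 2, or of both. This rule kept 272 of the 700 series-level peaks on these chromosomes, out of 9882 peaks in the whole list, and chromosome I was not part of it. The members were chosen by the positions of peaks in the 3 lists, so the counts of supported peaks and all values of score and width below are descriptions without a test.

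DPY-26 was immunoprecipitated from Caenorhabditis elegans embryos of mixed stages, and the DNA was sequenced (ChIP-seq). The embryos were of the wild-type strain N2, came from a population of males and hermaphrodites grown at 20 °C, and were fixed with 2% formaldehyde for 30 minutes. The antibody was an affinity-purified rabbit polyclonal (SDQ4561) against part of DPY-26. The series holds 2 ChIP and 2 input libraries, all of 1 genotype and stage, with no group lacking DPY-26, so enrichment that does not depend on DPY-26 cannot be told apart from binding. Peak lists of the inputs were not used here. The labels name no separate cultures for the replicates, and without read counts in the files the depth behind a peak is unknown. Positions refer to WormBase release WS220, the build named in the files. No genome or annotation of that release was used here, so the regions are given by position, without genes or sequences.

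DPY-26 is the kleisin subunit of 2 condensins, the ring-shaped complexes that shape chromosomes. In condensin I it acts on all chromosomes when cells divide. In the dosage compensation complex of hermaphrodites it is loaded at recruitment sites on the X, spreads along that chromosome and lowers its transcription. Autosomal peaks therefore lie outside the chromosome on which the protein is best known.

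Of the 272 supported peaks, 68 overlapped both replicates, 117 overlapped replicate 1 alone and 87 overlapped replicate 2 alone. Supported peaks were 38.9% of the autosomal series-level peaks considered here (Wilson 95% interval 35.3% to 42.5%), and peaks with both replicates were 9.71%. Replicate 1 was met by 26.4% of the 700 peaks and replicate 2 by 22.1%. On the X, 69.5% of the series-level peaks met a replicate peak and 12.1% met both. Of all 9008 X peaks, 13.1% met replicate 1 and 68.5% met replicate 2. The kind of support was unlike on the X. There, 98.6% of the 6259 supported peaks overlapped replicate 2 and 18.9% overlapped replicate 1, against 57.0% (interval 51.0% to 62.7%) and 68.0% (62.3% to 73.3%) of the autosomal ones. Replicate 2 listed 2671 peaks in all but only 106 on II to V, while replicate 1 listed 1463 and 191. The difference from the X was not tested, because peaks are not replicates of a condition, and the intervals cover counting error only.

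The 4 autosomes held similar numbers of supported peaks. There were 62 on chromosome II, 65 on III, 71 on IV and 74 on V, which is 37.6%, 38.5%, 41.0% and 38.3% of the peaks listed there. Per megabase, up to the last peak of each chromosome, the densities were 4.09, 4.72, 4.06 and 3.54. The mixture of support varied more than the totals. Peaks with both replicates numbered 10 on II, 15 on III, 21 on IV and 22 on V. Replicate 1 alone supported 33 peaks on II and 38 on V but 20 on IV, and replicate 2 alone supported 30 on IV but 14 on V. Several of these peaks shared 1 replicate peak. With such peaks joined into sites, as described below, replicate 1 alone had 25 sites on II, 13 on III, 19 on IV and 24 on V. Replicate 2 alone had 13, 16, 15 and 9, so by sites it exceeded replicate 1 alone on III and not on IV.

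**Figure D1:**
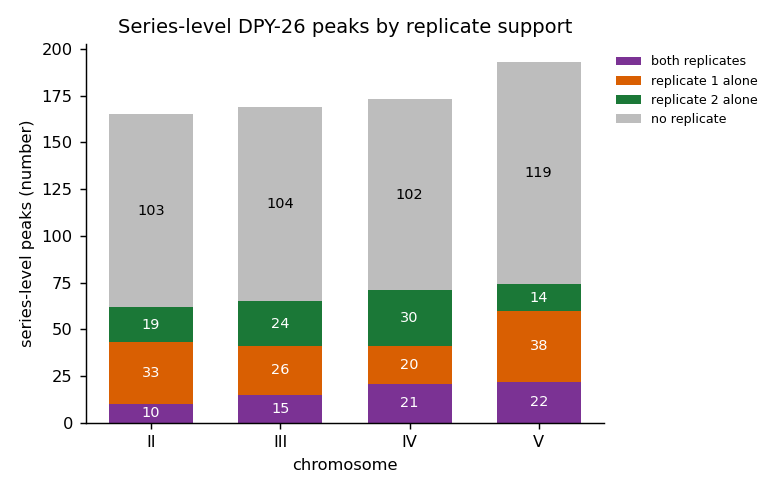
Number of series-level peaks (vertical axis) on chromosomes II, III, IV and V (horizontal axis), split by the replicate lists that overlapped them by 1 bp or more; the numbers stand in the bars. Supported peaks number 62 to 74 on each chromosome. By peaks, replicate 1 alone is the larger part on V and replicate 2 alone on IV. With peaks that share a replicate peak joined into sites, replicate 1 alone is the larger on both, 24 against 9 on V and 19 against 15 on IV.

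Most supported peaks scored above the median of the whole series-level list, and none reached its highest scores. The score is the authors' value per peak from their caller and is compared only within a list. The series-level score of the 272 peaks ran from 1.42 to 44.94, with a median of 8.95 and quartiles of 4.75 and 14.0. Of the 272, 162 (59.6%) lay above the list median of 7.02 and 75 (27.6%) lay among the highest-scoring 25% of the whole list, but the highest of them ranked 698 of 9882. The median was 9.98 for peaks with both replicates, 9.93 for replicate 1 alone and 6.46 for replicate 2 alone, against 5.51 for the 428 autosomal peaks without support. X peaks with support had a similar median of 8.86, but those with both replicates had 51.1.

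Width went with support more closely than score did. The supported peaks were 146 bp to 4087 bp wide with a median of 348.5 bp, against 201.5 bp for the peaks without support and 303 bp for the whole list. Among the widest 25% of the 700 peaks, from 345 bp up, 138 of 175 (78.9%) were supported, and among the narrowest 25%, up to 174 bp, 31 of 175 (17.7%) were. By score the highest 25% held 108 of 175 (61.7%) and the lowest 25% held 56 of 175 (32.0%). Within bands of width the scores of supported and other peaks lay close, with medians of 4.96 and 4.43 in the narrowest 25%, 4.36 and 5.42 from 175 bp to 232 bp and 7.77 and 8.44 from there to 345 bp. In the widest 25% they were 11.9 and 8.17. Support is an overlap of positions, so width is not independent of the rule. With support counted only where the midpoint of the peak lay inside a replicate peak, 268 peaks were supported.

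Peaks of 1000 bp or more were mostly found with replicate 1. There were 24 of them among the supported peaks, of which 19 had replicate 1 alone, 4 had both and 1 had replicate 2 alone. Over all 272 peaks the share with replicate 1 alone was 43.0%. Some of the 19 lay side by side under 1 replicate 1 peak, such as 3 on chromosome II at 8288339 to 8292823. The 19 are thus fewer independent places. Among the peaks without support there were 2. Over the 272 peaks the rank correlation of series-level score with width was 0.51 (Spearman), and over the 428 others it was 0.42. Score and width of a peak come from the same signal, so these are descriptions.

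**Figure D2:**
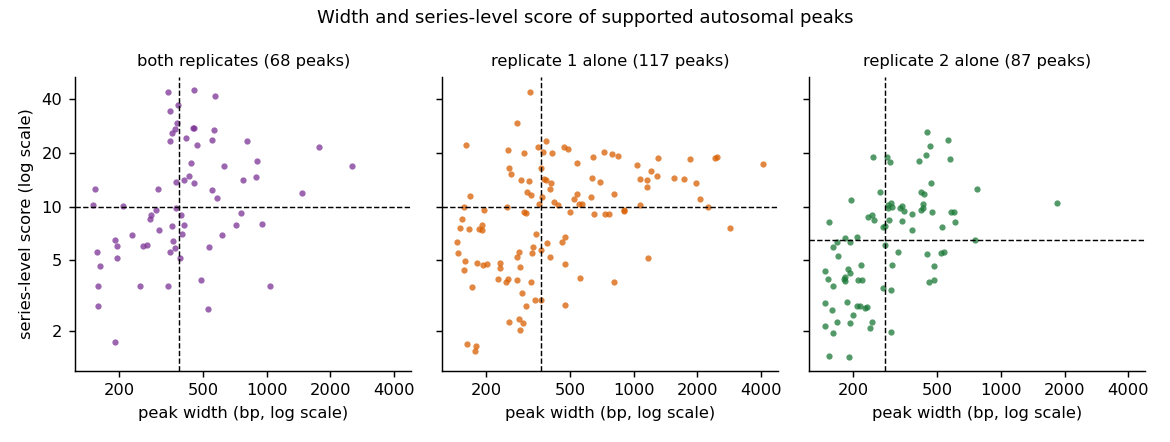
Series-level score (vertical, log scale) against peak width in bp (horizontal, log scale), 1 point per supported peak and 1 panel per kind of support; dashed lines mark the panel medians. Replicate 1 alone has 19 of the 24 peaks at or above 1000 bp, some of them under the same replicate 1 peak. Replicate 2 alone has the lowest median score, 6.46.

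Few peaks sat near the edge of the rule. In 252 of the 272 (92.6%), the whole peak lay inside a replicate peak. The smallest overlaps were 28 bp on chromosome II at 11759491 to 11759670, 71 bp on V at 1713701 to 1713876 and 94 bp on V at 19142636 to 19142781, all with replicate 1 alone and with series-level scores of 4.79, 1.54 and 6.30. Just outside, the nearest peaks without support stopped 78 bp short on V at 9087575 to 9087971, 469 bp short on II at 11959150 to 11959629 and 471 bp short on V at 8893855 to 8894017, with scores of 2.86, 7.02 and 3.48. Of the peaks without support few came near, since 3 of the 428 peaks without support lay within 500 bp of a replicate peak, and their median distance to one was 114708 bp. The highest score without support was 28.48, on V at 9730891 to 9731368, and it was 295471 bp from the nearest replicate peak.

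Several supported peaks often shared 1 replicate peak, so the 272 peaks are fewer independent places. Joining peaks that met the same or overlapping replicate peaks gave 178 sites. Of these, 44 held peaks of both replicates, 81 of replicate 1 alone and 53 of replicate 2 alone. A single series-level peak made up 124 sites (69.7%), and 22 sites with 3 or more peaks held 84 of the 272. Sites with 1 peak in each list and sites with several series-level peaks are described in turn. The other 100 sites, 60 with replicate 1 alone and 40 with replicate 2 alone, held a single series-level peak.

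At 24 sites, called sharp here, 1 series-level peak met 1 peak of each replicate and nothing else. The name goes by the number of peaks and not by width, and 1 of the series-level peaks was 1039 bp wide. These included 14 of the 20 supported peaks with the highest series-level scores. Their series-level scores had a median of 23.5 and ran from 3.56 to 44.94. In the replicates they scored modestly, with a median of 109.1 in replicate 1 (range 51.8 to 259.2) and 106.1 in replicate 2 (range 52.6 to 370.3). The centres lay close together at most of these sites, which were chosen because their peaks overlapped, so closeness is partly set by the choice. The series-level centre was a median of 24.8 bp from the replicate 1 centre, never more than 93 bp, and 30.8 bp from the replicate 2 centre, with the largest distance 671.5 bp. Median widths were 442.5 bp in the series-level list, 407.5 bp in replicate 1 and 1449.5 bp in replicate 2. The replicate 2 peaks extended to both sides of the series-level peak. The sharp sites numbered 5 on II, 7 on III, 4 on IV and 8 on V.

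**Figure D3:**
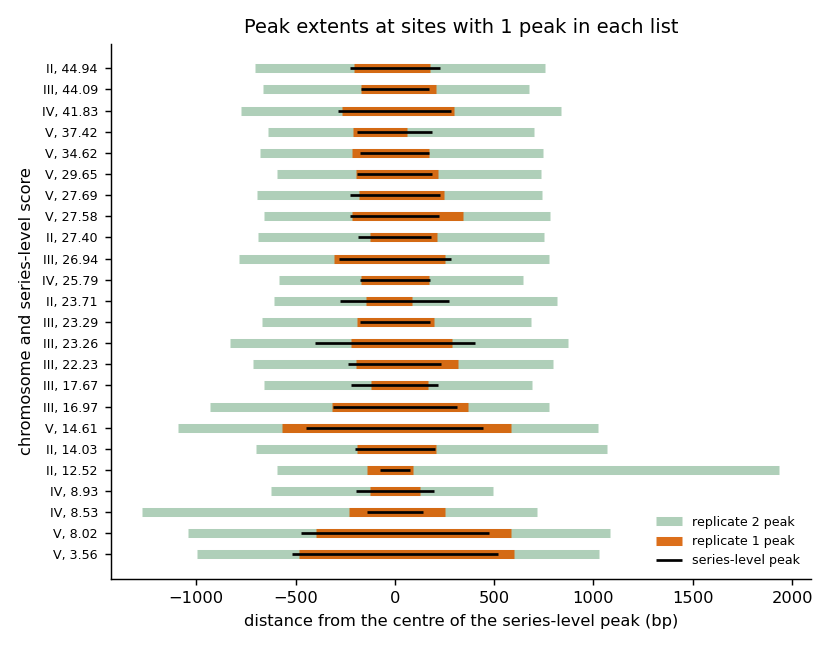
Extents of the series-level peak (black line), the replicate 1 peak (orange) and the replicate 2 peak (green) at the 24 sites with 1 peak in each list, as distance in bp from the centre of the series-level peak; rows are labelled by chromosome and series-level score, in order of score. The 3 centres lie close together at most sites, which were chosen for overlapping peaks, and replicate 2 is the widest, with a median of 1449.5 bp.

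On chromosome II the highest of the sharp sites lay at 11960580 to 11961030, with a series-level score of 44.94 and replicate scores of 259.2 and 232.9. The site at 6852995 to 6853361 scored 27.4, with 157.8 in replicate 1 and 70.2 in replicate 2. On chromosome III the peak at 10461051 to 10461392 scored 44.09 although its replicate scores were 94.7 and 100.3. The next on III lay at 5031283 to 5031846 (score 26.94, replicates 171.0 and 248.5) and at 10758992 to 10759340 (score 23.29, replicates 125.1 and 96.5). Both replicate lists scored these sites well below their own highest autosomal peaks.

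On chromosome IV the peak at 11025871 to 11026438 scored 41.83, with 253.5 in replicate 1 and 359.1 in replicate 2, and the peak at 8252878 to 8253231 scored 25.79 with replicate scores of only 51.8 and 83.5. On chromosome V the highest 3 were at 15873763 to 15874140 (score 37.42, replicates 103.5 and 104.1), at 8500351 to 8500696 (score 34.62, replicates 108.2 and 84.8) and at 19642951 to 19643327 (score 29.65, replicates 213.5 and 87.2). The 10 sites named here thus had replicate scores from 51.8, near the lowest value listed, up to 359.1.

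Over the 24 sharp sites the replicate scores ranked alike to a moderate degree, with a Spearman correlation of 0.48. The series-level score correlated at 0.46 with the replicate 1 score and at -0.02 with the replicate 2 score. Over the 40 sites with 1 peak of each replicate, several series-level peaks allowed, these were 0.34, 0.45 and -0.18. Over all 125 sites with replicate 1, the highest series-level score of a site correlated at 0.12 with the replicate 1 score. Over all 97 sites with replicate 2 it correlated at 0.24 with the replicate 2 score, so the order seen in the smaller sets did not hold there. The points are sites of the same libraries and the lists are not independent.

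Sites with several series-level peaks are called broad here, again by the number of peaks and not by width. Among sites with both replicates 20 were broad, with a median span of 3473.5 bp and a median replicate 2 score of 298.5, against 106.1 at the sharp sites. Their highest series-level score per site had a median of 11.6, against 23.5. The medians of the series-level and replicate 2 scores ordered the sharp and the broad sites in opposite ways. The replicate 1 score was 86.6 at the median, against 109.1. Replicate 2 peaks covered a median of 3473.5 bp at these broad sites and 1449.5 bp at the sharp ones. Replicate 2 score rose with width over 97 sites (Spearman 0.52). The split by number of peaks is therefore not independent of the replicate 2 score.

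The broadest site with both replicates lay on chromosome III at 7443761 to 7448823 and had the highest autosomal replicate 2 score, 1946.7, against 321.2 in replicate 1. Its 3 series-level peaks included 1 of 2544 bp at 7444447 to 7446990, the third widest of the 272, with a score of 16.82. On chromosome II the highest replicate 2 score was 892.5, with 213.1 in replicate 1. This site held 2 series-level peaks, at 12843681 to 12844034 (score 7.79) and at 12844255 to 12846019 (1765 bp, score 21.58). On chromosome II at 11634858 to 11635270, the third of that chromosome's peaks with both replicates, replicate 2 scored 424.9 and replicate 1 84.5. On IV the site at 14032111 to 14034947 scored 826.7 in replicate 2 and 140.1 in replicate 1. It holds a peak at 14033590 to 14034488 with both replicates and a score of 18.07, and one at 14032531 to 14033285 that met replicate 2 alone. Also on IV, the sites at 11323563 to 11327420 and 11337372 to 11341250 held 5 and 4 series-level peaks, with 572.4 and 498.7 in replicate 2 and 76.5 and 123.0 in replicate 1. Most of these sites were named for their replicate 2 scores. The broad site on V at 14766099 to 14770330 went the other way, with 434.4 in replicate 1 and 90.5 in replicate 2, and scores of different lists are not on 1 scale.

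Sites with replicate 1 alone held the widest series-level peaks and the highest replicate 1 scores. The 21 such sites with several series-level peaks had a median replicate 1 score of 208.0 and a median span of 2824 bp, and series-level peaks filled a median of 70.9% of the span. At the 13 sites of this kind with replicate 2 alone they filled 23.0%. A similar gap held at sites with 1 series-level peak, with 76.4% for replicate 1 alone and 20.2% for replicate 2 alone. The span follows the replicate peak, and replicate 2 peaks that met a series-level peak were wider (median 1858 bp, against 699.5 bp in replicate 1). The 6 highest-scoring replicate 1 peaks on II to V overlapped no replicate 2 peak, whereas 5 of the 6 highest of replicate 2 overlapped replicate 1. Of the 30 sites with a replicate 1 score of 200 or more, 8 (26.7%) also had a replicate 2 peak, against 44 of all 125 sites with replicate 1 (35.2%). Of the 22 sites with a replicate 2 score of 200 or more, 17 (77.3%) also had a replicate 1 peak, against 44 of all 97 sites with replicate 2 (45.4%). No test over libraries can be made with 2 replicates.

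The highest autosomal replicate 1 score, 1459.7, belonged to a peak on chromosome III at 1017274 to 1020667. That replicate 1 peak ranked 38 of 1463, but its series-level peaks scored only 6.71, at 1018674 to 1019147, and 2.34, at 1019213 to 1019499. On V the widest of the 272 lay at 17119945 to 17124031 (4087 bp, score 17.3) under a replicate 1 peak of 6783 bp with a score of 1102.9. On II the highest was the peak at 8288458 to 8289757 (score 18.83) with 753.7 in replicate 1, and on IV that at 2828604 to 2830579 (score 13.49) with 344.8. Replicate 2 listed no peak at any of them.

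Width and replicate 1 score did not always go together. The second widest peak, 2863 bp on V at 10606982 to 10609844 with a series-level score of 7.54, lay under a replicate 1 peak of 6912 bp that scored only 81.8. On III a replicate 1 peak of 5537 bp at 5353044 to 5358580 covered 8 series-level peaks, the most at any site, and scored 82.9. Across the 120 sites with 1 replicate 1 peak the rank correlation of its score with its width was 0.49, and across the 97 sites with 1 replicate 2 peak it was 0.52.

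**Figure D4:**
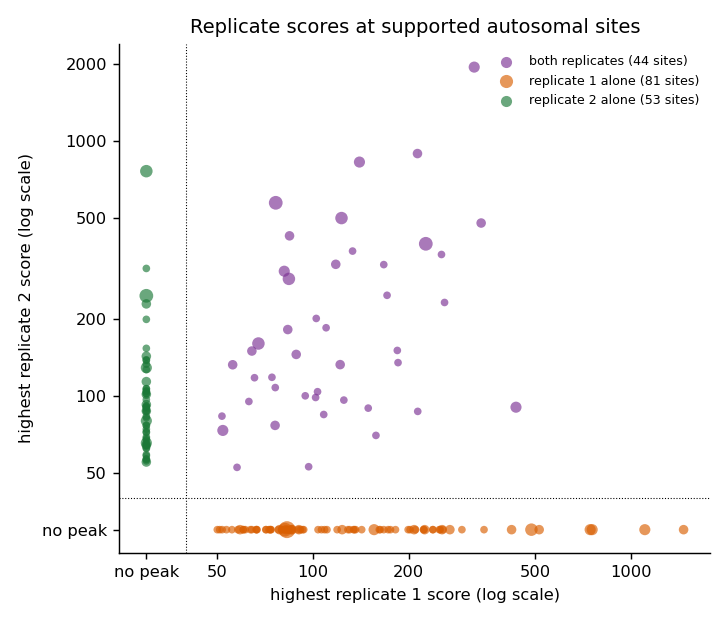
Highest replicate 2 score (vertical) against highest replicate 1 score (horizontal) at the 178 sites, both on log scales; larger points hold more series-level peaks, and sites without a peak in 1 replicate are drawn beyond the dotted lines. The highest replicate 1 scores, up to 1459.7, have no replicate 2 peak, and the highest replicate 2 score, 1946.7, has a replicate 1 score of 321.2.

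Peaks with a single replicate also reached high series-level scores. For replicate 1 alone, the highest per chromosome lay on III at 8043739 to 8044060 (score 43.79, replicate 1 score 175.3), on IV at 143839 to 144116 (29.65 and 77.9), on II at 86 to 245 (22.13 and 85.5) and on V at 12303378 to 12303729 (21.72 and 172.3). For replicate 2 alone they lay on II at 5543380 to 5543823 (score 26.3, replicate 2 score 105.0), on III at 13070257 to 13070820 (23.8 and 229.9), on V at 9344035 to 9344496 (21.87 and 106.8) and on IV at 8432712 to 8433009 (17.79 and 107.1). The chromosome III peak with replicate 1 alone ranked 720 in the list, next to the sharp sites that both replicates supported.

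Supported peaks lay close together in places and far apart elsewhere. Of the 272, 175 (64.3%) had another supported peak within 10 kb, and 75 of the 268 gaps between neighbours were 500 bp or less. The median gap was 60533.5 bp. Part of this closeness is built into the rule, because all series-level peaks under the same replicate peak count as supported. The 22 sites with 3 or more peaks held 84 of the 272. Neighbours were not counted in this way for the peaks without support or for all autosomal series-level peaks. The longest stretches without a supported peak were 2.89 Mb on II, 2.62 Mb on V, 2.17 Mb on IV and 1.73 Mb on III, and they held 12, 6, 9 and 14 series-level peaks without support.

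Counting sites in place of peaks, 44 of the 178 lay within 10 kb of another, in 17 groups. In 14 of these groups all sites had the same kind of support. The kinds are unequal in number (81 sites with replicate 1 alone, 53 with replicate 2 alone, 44 with both). No expected share was worked out to set beside this count. The group with the most sites, 6, lay on chromosome II at 13817622 to 13827673. Its sites started 1714 bp to 1928 bp apart, were 1092 bp to 1321 bp long, and scored 78.6 to 181.8 in replicate 1 with no peak in replicate 2. On chromosome V, 2 groups of 3 and 4 sites at 8846780 to 8854508 and 8888835 to 8899043 had both replicates at every site. These sites started 2431 bp to 3157 bp apart within a group and were 2005 bp to 2359 bp long. They scored 64.3 to 133.3 in replicate 1 and 133.0 to 370.3 in replicate 2. The peak at 8889484 to 8890373, with a series-level score of 14.61, had the highest replicate 2 score of chromosome V, 370.3, and 133.3 in replicate 1. A further group of 4 on V, at 17115365 to 17132176, included the widest peak and had replicate 1 alone, with scores of 199.2 to 1102.9. On III, 3 sites at 13061808 to 13072649 had replicate 2 alone, with scores of 92.7 to 229.9. These groups were singled out after their values had been seen.

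The last comparison set the central 50% of each chromosome against its outer parts. In this worm the autosomal arms recombine more and carry more repeats than the centres, where more of the conserved and essential genes lie. Over II to V, 149 supported peaks were central and 123 outer, a ratio of 1.21, against 1.31 for the peaks without support. The ratio was 0.59 on II, 1.41 on III, 2.09 on IV and 1.18 on V, so the chromosomes did not share a direction. Peaks with both replicates were central in 44 of 68 cases and peaks with replicate 1 alone in 55 of 117. With replicate 2 alone, 50 of 87 were central.

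Groups of neighbouring sites carried part of these counts. On chromosome V, 19 of the 22 peaks with both replicates were central, and without the 2 groups that start at 8846780 and 8888835 8 of 11 were. Without those groups the ratio for both replicates over II to V was 1.38 in place of 1.83. On chromosome II, 20 of the 33 peaks with replicate 1 alone were outer, but without the group of 6 sites 9 were outer and 13 central, so the direction turned. On V, 25 of 38 such peaks were outer, and 17 of 30 without the group at 17115365 to 17132176. By sites, 96 were central and 82 outer, a ratio of 1.17.

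**Figure D5:**
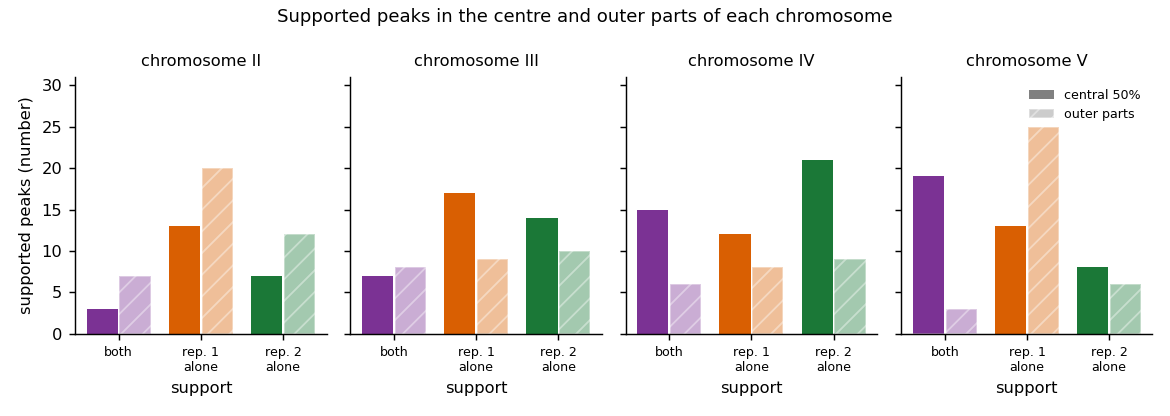
Number of supported peaks (vertical axis) in the central 50% (solid bars) and the outer parts (hatched bars) of chromosomes II, III, IV and V, by kind of support (horizontal axis). On V the peaks with both replicates are central in 19 of 22 cases and those with replicate 1 alone are outer in 25 of 38. On II each kind is more often outer by peaks, for replicate 1 alone only with the group of 6 sites included. For replicate 2 alone on II, 4 outer peaks share the site at 14247538 to 14252157, and counted as sites this kind is not more often outer.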

How the data were processed

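Per the submitters' processing notes, BWA (version not stated) aligned the reads to ce10. Per the source columns of the files, MACS called the replicate peaks and MACS v2 the series-level ones. The deposited score per peak is the authors' value, with a scale not given in the sources used here: series-level scores start at 1.30, those of replicate 1 at 50.1 and those of replicate 2 at 50. Use of input as control, filters and pooling of replicates are not given either, so the series-level list may not be independent of the replicates, and widths of different callers are not on 1 scale.

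Overlap was counted from 1 bp with Python 3.11.15, numpy 2.4.6 and pandas 2.3.3, checked on simulated lists. The 272 peaks were also found with bedtools 2.31.1. Sites were joined with networkx 3.6.1, Wilson intervals and rank correlations came from scipy 1.17.1 and figures from matplotlib 3.10.9. Chromosome length was the largest peak end in any list. It can be too short where no peak lies near the end, or too long where a listed peak runs past it. No test was run, because peaks of 1 library are not replicates and 2 replicates allow none. Per chromosome, the text names the 3 highest-scoring peaks with both replicates, the highest with each replicate alone and the peaks with the highest replicate scores, plus the 3 widest and those at the edge of the rule; others were chosen after their values were seen. The peaks and the naming rule were chosen with earlier results of these data known. Alternatives covered the overlap rule, score limits, peak width, merging and each replicate alone.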

Additional observations from a re-analysis of the deposited data

Results flagged for a closer look

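Some replicate peaks on II to V met no series-level peak and so entered none of the counts above, which is why they are listed as signal outside the main measurement. There were 61 of 191 in replicate 1 and 9 of 106 in replicate 2. The 61 had a median replicate 1 score of 92.7, against 105.1 for the 130 that met one. The highest of them, on chromosome III at 2077615 to 2082625, was 5011 bp wide and scored 939.7, the third highest autosomal score of replicate 1 on these chromosomes, and replicate 2 had no peak there. The 9 of replicate 2 scored at most 157.6.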

How the results depend on the processing

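Covering 50% of the series-level peak or its midpoint left 268 supported peaks, 65 and 66 of them with both replicates. Each of these rules gave 171 peaks with a neighbour within 10 kb, a median score of 9.07, a width of 349 bp and a ratio of centre to outer parts of 1.25. The rank correlation was 0.50 and 0.48. With 50% reciprocal overlap 76 peaks (10.9%) were supported, 4 by both replicates and 20 with a neighbour within 10 kb, with a median score of 15.6 and width of 449 bp; too few pairs were left for the rank correlation. Replicate 2 peaks are wider than the series-level peaks, which this rule penalises. The highest-scoring 50% of the list gave 175 supported peaks (50%), a median score of 11.8, a width of 411 bp and 92 with a neighbour. The highest-scoring 25% gave 108 (61.7%), 33 with both, 16.2, 449 bp and 39. Replicate scores of 100 or more gave 164 (23.4%), 29 with both, 115 with a neighbour and a rank correlation of 0.20 over 10 pairs in place of 0.48 over 24. Replicate 2 peaks resized to the replicate 1 median width gave 33.6% supported, 42 with both in place of 68 and a median width of 372 bp. Merging series-level peaks within 500 bp gave 32.4%, 442 bp and 77 with a neighbour. Sites in place of peaks, added after seeing the data, gave 178, and the highest-scoring peak of each a median score of 10.4 and width of 377 bp. Using replicate 2 or replicate 1 alone gave 155 to 185 supported peaks, 22.1% to 26.4%, widths of 339 bp to 372 bp, 100 to 118 with a neighbour and a ratio of centre to outer parts of 1.15 to 1.54. That ratio stayed above 1 under every alternative run, from 1.05 up, although it was 0.59 on chromosome II alone. No paired analysis was possible because no test was run and the inputs have no peak list here. Depth is unknown, so a replicate without a peak is not shown to lack binding.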

Other observations

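Supported peaks lay at the first bases of 2 chromosomes. On chromosome II the peak at 86 to 245 had a series-level score of 22.13 and a replicate 1 score of 85.5. On chromosome V the peak at 1 to 330 had a series-level score of 5.47 and a replicate 1 score of 71.3. Neither overlapped a replicate 2 peak.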
